A study of Mus musculus with 12 samples.

Results

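The 10 genes described here encode the MHC class II antigen presentation pathway: the class II chains H2-Aa, H2-Ab1 and H2-Eb1, the invariant chain Cd74, the transactivator Ciita, the peptide editor H2-DM (H2-DMa, H2-DMb1 and H2-DMb2) and its inhibitor H2-O (H2-Oa and H2-Ob). They were taken by name from the 35275 genes of the deposited expression table, and all 10 were found in it. The list was chosen by measured values: the FPKM of class II genes had been seen to be higher with treatment in one mouse strain and lower in the other. The differences with treatment below are therefore a description, with no test.

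RNA-Seq was done on CD4+ T cells isolated from 12 female mice, given as 9 weeks old in the sequencing methods and as 9 to 12 weeks old elsewhere in the study, 3 in each of 4 groups. B6 mice (C57BL/6) that had received anti-CD45RB and B6 mice that had not were set beside SLE123 mice (B6.NZMSle1/Sle2/Sle3), again with and without the antibody. SLE123 is a lupus-prone congenic line that carries the Sle1, Sle2 and Sle3 susceptibility regions on the B6 background. The antibody (clone MB23G2, directed at the RB isoform of the CD45 phosphatase) was given at 100 µg in 5 injections from day 0 to day 7. The cells of all groups were purified by negative magnetic selection, and the methods also describe a division into CD25+ and CD25- cells that the sample titles do not mention. Each mouse gave 1 library of 13563594 to 23642949 fragments. The comparison asks how CD4+ T cells of a healthy and of an autoimmune strain respond to an antibody that induces immune tolerance.

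MHC class II molecules are pairs of an α and a β chain that show peptides from endocytosed protein to CD4+ T cells. The invariant chain fills the groove of a new pair until proteases cut it down to a short remnant, which H2-DM then removes so that peptide can bind, and H2-O restrains H2-DM. Ciita switches the genes on together through a complex of DNA-binding factors on their promoters. In mice the pathway belongs to B cells, dendritic cells and macrophages, and resting mouse T cells transcribe little of it, so a CD4+ T cell preparation is not where it is usually studied. The B6 genome carries H2-Ea, the α partner of H2-Eb1, only as a pseudogene.

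The T cell markers were as the label says in all 12 libraries. Cd4 lay between 237 and 327 FPKM (fragments scaled to transcript length and to library size) and Cd3e, a chain of the T cell receptor complex, between 274 and 401 FPKM. Markers of other cells were present too, at levels given beside the class II genes below. A pair of libraries stood apart. Untreated SLE123 replicate 3 had the highest level of 8 of the 10 class II genes and of the B cell markers Ms4a1, Cd79a and Cd79b, and treated SLE123 replicate 1 was the one SLE123 library with liver transcripts at the level of the B6 libraries (Alb 28.2 FPKM, against 0 to 0.0296 FPKM in the other 5 and 24.7 to 30.7 FPKM in B6). Some results are given with and without them, and the others include them.

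Of the 10 genes, 8 lie in the class II region of chromosome 17 (GRCm38, GENCODE release M21). In order along the chromosome these were H2-Oa at 34092340 to 34095234, H2-DMa at 34119541 to 34139101, H2-DMb2 at 34143307 to 34151555, H2-DMb1 at 34153072 to 34160230, H2-Ob at 34238903 to 34254414, H2-Ab1 at 34257689 to 34269419, H2-Aa at 34282744 to 34287823 and H2-Eb1 at 34305867 to 34316674. H2-Aa is on the minus strand and the other 7 are on the plus strand. Cd74 and Ciita lie elsewhere.

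The promoters were searched for letters of the element that Ciita acts through. RefSeq promoter windows (GRCm38.p6) were at hand for 7 of the 10 genes: H2-Aa, H2-Eb1, H2-DMa, H2-DMb1, H2-DMb2, H2-Oa and H2-Ob. Class II promoters are known for an X box, bound by the RFX complex and CREB, followed by a Y box, bound by NF-Y. The 250 bases before the start were searched on both strands for GCAAC followed 20 to 35 bases later by ATTGG, the inverted CCAAT letters of a Y box. H2-Aa, H2-Eb1, H2-Oa and H2-Ob hold the pair, as do 0.673% of all 32851 windows. With AAC alone in place of GCAAC, H2-DMb1 and H2-DMb2 hold it as well, beside 7.15% of all windows, and these letters were chosen with the sequences in view. Neither window of H2-DMa holds it. The stretch is shown for 3 genes that differed with treatment in opposite ways in the strains (H2-Aa, H2-Eb1, H2-DMb2) and for the H2-O genes, which did not, with the first element and ATTGG in capitals, 5′ to 3′ on the gene's strand.
H2-Aa, chr17:34287867-34287909, minus strand: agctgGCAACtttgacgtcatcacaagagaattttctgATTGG
H2-Eb1, chr17:34305771-34305812, plus strand: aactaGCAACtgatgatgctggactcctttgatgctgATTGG
H2-DMb2, chr17:34145121-34145163, plus strand: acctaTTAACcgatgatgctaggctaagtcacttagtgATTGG
H2-Oa, chr17:34092298-34092340, plus strand: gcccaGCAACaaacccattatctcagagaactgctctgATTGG
H2-Ob, chr17:34238813-34238852, plus strand: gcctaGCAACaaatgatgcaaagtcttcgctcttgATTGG
The elements were 25 bases apart in H2-Ob, 27 in H2-Eb1 and 28 in the other 3, and ATTGG began 43 bases before the start in H2-Oa, 48 in H2-Aa, 57 in H2-Ob, 59 in H2-Eb1 and 90 in H2-DMb2. The start here is the RefSeq one, which for H2-Oa and H2-DMb2 lies downstream of the GENCODE gene start given above. The H2-O genes carry the same letters as H2-Aa and H2-Eb1. A match is a description of the letters and not of a bound site.

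H2-Aa, the α chain of the I-A molecule, stood in opposite order with treatment in the strains. It stood at 3.40, 1.03 and 3.73 FPKM in untreated B6 replicates 3, 4 and 5, and at 36.1, 35.7 and 26.4 FPKM in treated B6 replicates 1, 3 and 5. In SLE123 it stood at 21.1, 25.3 and 104 FPKM in untreated replicates 1, 2 and 3, and at 13.1, 14.2 and 14.7 FPKM in the treated ones. Every treated B6 mouse was above every untreated one, and every treated SLE123 mouse was below every untreated one. The mean was 12.05-fold higher with treatment in B6. In SLE123 the untreated mean was 3.58-fold above the treated one, and 1.66-fold without untreated replicate 3.

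H2-Ab1, its β chain partner, followed H2-Aa in B6. It was at 4.09, 1.60 and 3.18 FPKM in the untreated B6 mice and at 40.7, 41.0 and 30.8 FPKM in the treated ones, a 12.7-fold difference of the means. In SLE123 it was at 33.6, 49.97 and 155 FPKM untreated and at 19.6, 29.4 and 33.9 FPKM treated. The SLE123 groups overlapped, since treated replicate 3 was just above untreated replicate 1. The untreated mean was 2.88-fold above the treated one, and 1.51-fold without untreated replicate 3.

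H2-Eb1, the β chain of the I-E molecule, had the largest difference of the 10 genes in B6. It was at 2.98, 0.700 and 1.94 FPKM in untreated B6 mice and at 31.7, 31.0 and 23.3 FPKM in treated ones, 15.3-fold apart in the means. In SLE123 it was at 24.2, 29.6 and 122 FPKM untreated and at 15.2, 16.4 and 17.1 FPKM treated, with no overlap, and the fold of the means was 3.60, or 1.66 without untreated replicate 3. Its pseudogene partner H2-Ea-ps was listed at 0 in 11 libraries and at 0.156 FPKM in untreated SLE123 replicate 2. The β chain gene H2-Eb2 was low throughout, at 0.0281 to 0.0842 FPKM in untreated B6, 0.296 to 0.467 FPKM in treated B6, 0.817 to 0.963 FPKM in treated SLE123 and 1.04 to 4.19 FPKM in untreated SLE123. Its order of groups was that of Cd74 and not that of H2-Aa.

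Cd74, the invariant chain (chromosome 18, 60803848 to 60812652, plus strand), was the most abundant of the 10 genes in the treated B6 mice and in all 6 SLE123 mice. It was at 12.7, 7.92 and 12.8 FPKM in untreated B6 mice and at 98.6, 101 and 73.6 FPKM in treated ones, 8.18-fold apart in the means. In SLE123 it was at 200, 327 and 675 FPKM untreated and at 122, 209 and 220 FPKM treated, so treated replicates 2 and 3 overlapped untreated replicate 1. The untreated mean was 2.18-fold above the treated one, and 1.43-fold without untreated replicate 3. All 6 SLE123 mice were above all 6 B6 mice, whatever their treatment.

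Ciita, the transactivator of the other genes (chromosome 16, 10480059 to 10528418, plus strand), was low in every library. It was at 0.295, 0.0421 and 0.201 FPKM in untreated B6 and at 1.43, 1.07 and 1.10 FPKM in treated B6, a 6.69-fold difference of means that rests on as few as 4 fragments in 1 untreated library. In SLE123 it was at 0.656, 0.540 and 2.51 FPKM untreated and at 0.622, 0.434 and 0.592 FPKM treated. The SLE123 groups overlapped, and without untreated replicate 3 the means were 1.09-fold apart, against 2.25-fold with it. Part of Ciita (329 bases of exon) overlaps Dexi on the other strand, and whether fragments were counted by strand is not given in the sources used here.

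The H2-DM subunits had unlike levels. H2-DMa, the α subunit, was already at 12.9, 12.7 and 11.99 FPKM in untreated B6, near the level of Cd74 there, and at 14.1, 16.3 and 14.6 FPKM in treated B6, a 1.20-fold difference without overlap. In SLE123 it was at 16.7, 23.8 and 23.6 FPKM untreated and at 16.1, 15.5 and 18.4 FPKM treated, and the groups overlapped. H2-DMa shares 360 bases of exon with Brd2 on the other strand, a gene at 104 to 124 FPKM, and the part of such fragments in its level was not tested.

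The β subunits behaved as the class II chains did, at lower levels. H2-DMb1 was at 0.662, 0.866 and 0.487 FPKM in untreated B6 and at 4.15, 3.52 and 2.29 FPKM in treated B6, 4.94-fold apart, and at 3.15, 3.47 and 8.71 FPKM in untreated SLE123 and 1.44, 2.42 and 2.02 FPKM in treated SLE123. H2-DMb2 was at 0.836, 1.01 and 0.964 FPKM in untreated B6 and at 3.43, 3.79 and 2.97 FPKM in treated B6, 3.63-fold apart, and at 4.12, 5.34 and 19.0 FPKM in untreated SLE123 and 2.88, 2.40 and 2.46 FPKM in treated SLE123. Neither gene's groups overlapped in either strain. These are near-identical copies: 22.7% of the 50-base windows of H2-DMb1 transcripts occur unchanged in H2-DMb2, so how fragments were split between them is uncertain.

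H2-O, which restrains H2-DM, did not follow the other genes. H2-Ob, its β subunit, was at 25.0, 23.8 and 23.1 FPKM in untreated B6 and at 20.8, 20.97 and 19.6 FPKM in treated B6, lower with treatment and without overlap. In SLE123 it was at 18.8, 14.7 and 20.4 FPKM untreated and at 13.5, 13.3 and 13.4 FPKM treated, again lower without overlap. In untreated B6 it was the most abundant of the 10 genes, where H2-Aa, H2-Ab1 and H2-Eb1 were under 5 FPKM. H2-Oa, its α subunit, was at 2.92, 2.11 and 1.72 FPKM in untreated B6 and 1.98, 1.49 and 2.32 FPKM in treated B6, which overlapped, and at 2.31, 3.09 and 4.33 FPKM in untreated SLE123 and 1.79, 1.47 and 2.26 FPKM in treated SLE123, which did not. H2-Ob ranged over 607 to 1286 fragments per library and H2-Oa over 30 to 126, so the first is the better measured. H2-Oa shares 321 bases of exon with the antisense gene BC051537, at no more than 0.442 FPKM.

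**Figure D1:**
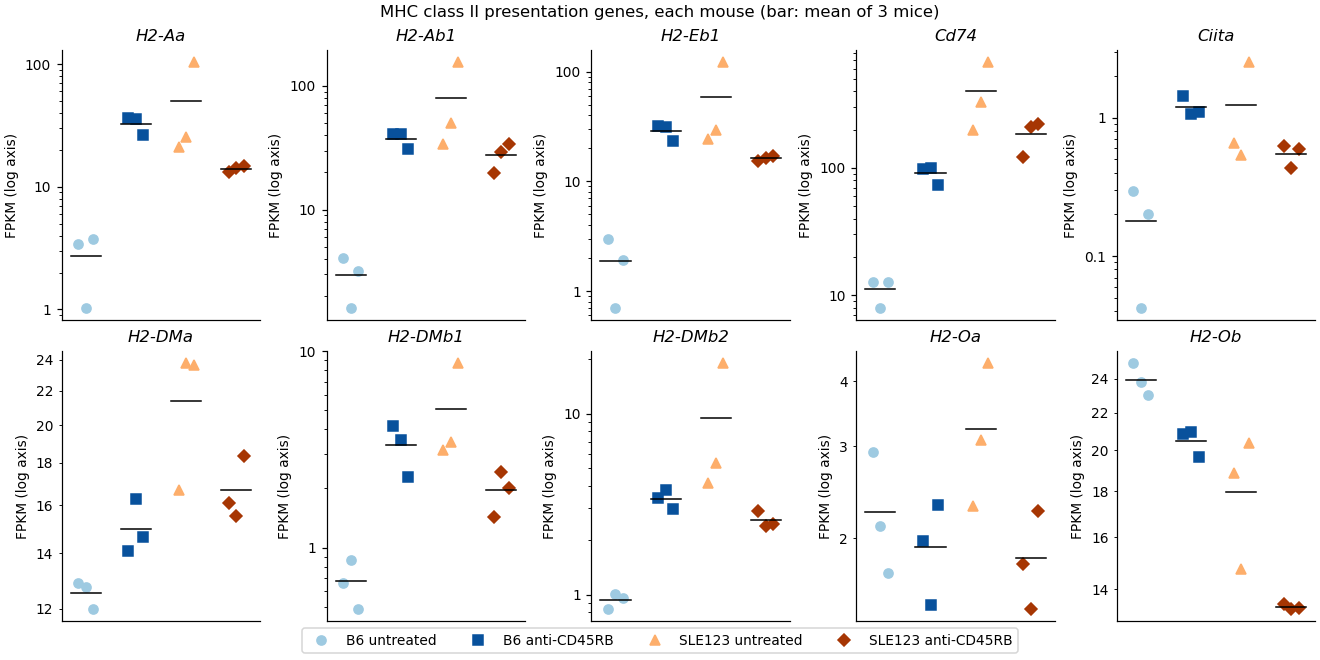
The level of each gene in FPKM (log axis) is shown for every mouse, with circles for untreated B6, squares for treated B6, triangles for untreated SLE123 and diamonds for treated SLE123, and a bar at the mean of the 3 mice. For H2-Aa the untreated B6 mice sit at 1.03 to 3.73 FPKM, the treated B6 mice at 26.4 to 36.1 FPKM and the treated SLE123 mice at 13.1 to 14.7 FPKM, while H2-Ob is highest in untreated B6.

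Over the 10 genes, treated B6 mice were all above untreated ones for 8, all below for 1 (H2-Ob), and overlapped for 1 (H2-Oa). Among the 13115 genes tested (mean of at least 0.5 FPKM), 19.4% were higher and 18.6% lower without overlap in B6. On the log2(FPKM + 1) scale, which understates the change of low genes, the difference in B6 was 3.44 ± 0.297 (SE) for H2-Eb1, 3.33 ± 0.245 for H2-Ab1, 3.26 ± 0.321 for H2-Aa and 2.94 ± 0.194 for Cd74. It was 1.35 ± 0.177 for H2-DMb1, 1.18 ± 0.0957 for H2-DMb2, 0.90 ± 0.114 for Ciita and 0.24 ± 0.0635 for H2-DMa, and -0.14 ± 0.164 for H2-Oa and -0.22 ± 0.0467 for H2-Ob. The median was 1.27, beside -0.0024 over all genes tested.

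In SLE123 all 10 genes had a lower mean with treatment, 6 of them without overlap (H2-Aa, H2-Eb1, H2-DMb1, H2-DMb2, H2-Oa and H2-Ob), where 6.02% of the genes tested were lower without overlap. The difference in log2(FPKM + 1) ran from -0.33 ± 0.146 for H2-DMa to -1.40 ± 0.545 for H2-Eb1, with a median of -0.97 beside 0.038 over all genes tested. The standard errors were larger than in B6, and untreated replicate 3 carried much of the size: without it the median was -0.54, and without treated replicate 1 as well it was -0.37. Without untreated replicate 1 instead, the median was -1.28. Of the 10 genes, 4 were higher without overlap in B6 and lower without overlap in SLE123 (H2-Aa, H2-Eb1, H2-DMb1 and H2-DMb2), where 1.86% of the genes tested did so. These counts are what the list was chosen for, and nothing is read from them.

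**Figure D2:**
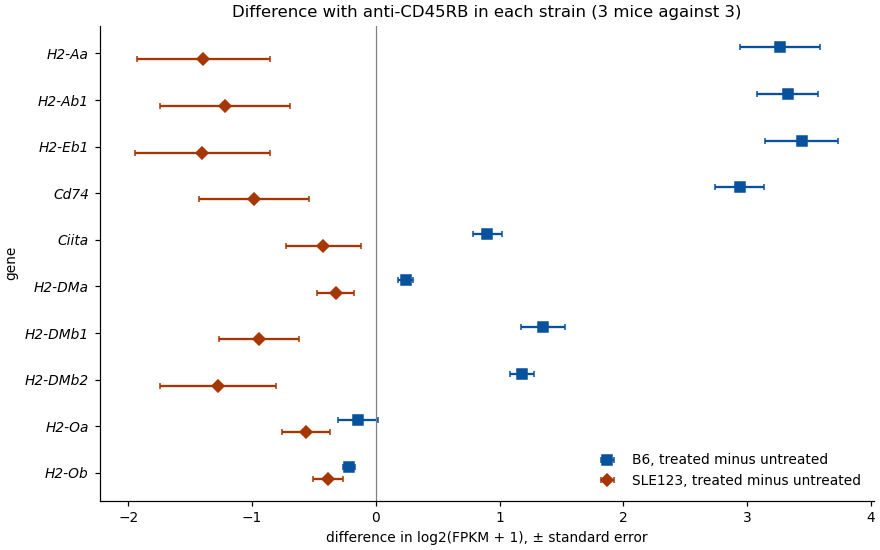
Treated minus untreated difference in log2(FPKM + 1) for each gene, with its standard error, for B6 (squares) and SLE123 (diamonds), 3 mice against 3. The B6 values reach 3.44 (H2-Eb1) and the SLE123 values lie between -1.40 and -0.33, and H2-Oa and H2-Ob are below 0 in both strains.

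The strains were compared on an average: SLE123 minus B6, over treated and untreated mice (6 against 6, limma on log2(FPKM + 1), adjusted by the Benjamini-Hochberg method over all 13115 genes). The genes were chosen on the treatment differences and not on this average. The average is independent of those differences only where the groups have equal spread. The spread was not equal in SLE123, as given below, so the p-values of the 10 genes are not fully free of the choice. On this scale 7 of the 10 genes were higher in SLE123, 1 was lower and 2 did not pass the test. Strain differences were common in these libraries: 60.6% of the genes tested passed, 31.5% higher and 29.1% lower, so the count is to be read against that share. Of the calls 52.0% were higher in SLE123, but 26.1% after rescaling to TPM, 33.2% after quantile normalization and 64.6% after leaving immunoglobulin genes out of the scale, since TPM and quantile scaling moved the median of all genes by -0.26 and -0.14 on the log2 scale. p-values measure the spread between these mice.

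Cd74 had the largest difference of the 10, higher by 2.94 ± 0.268 (SE, adjusted p = 3.3e-06) and above 98.3% of the genes tested. It was also the one member with all 6 SLE123 mice above all 6 B6 mice, as were 2626 of the 13115 genes tested. Cd74 was 4.90 higher in SLE123 among untreated mice and 0.97 higher among treated mice, so the direction was the same in both. H2-DMa was higher by 0.43 ± 0.0849 (adjusted p = 0.00116), with 0.71 among untreated and 0.14 among treated mice. After rescaling to TPM it did not pass the test (0.17, adjusted p = 0.0595).

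H2-Ob was the one gene lower in SLE123, by 0.49 on the log2 scale (-0.49 ± 0.0664, adjusted p = 6.88e-05). It was lower among untreated mice (-0.40) as well as among treated mice (-0.58), and 1 SLE123 mouse, untreated replicate 3 at 20.4 FPKM, lay above the lowest B6 mouse at 19.6 FPKM.

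For 7 genes, Ciita and H2-Oa among them, the average joins opposite differences. H2-Ab1 was higher by 1.82 ± 0.324 (adjusted p = 0.000518), H2-Eb1 by 1.65 ± 0.348 (adjusted p = 0.00166), H2-Aa by 1.17 ± 0.352 (adjusted p = 0.0133), H2-DMb2 by 0.93 ± 0.266 (adjusted p = 0.0101) and H2-DMb1 by 0.61 ± 0.204 (adjusted p = 0.0222). Among untreated mice SLE123 was above B6 by 4.09, 4.07, 3.50, 2.16 and 1.76 in the same order. Among treated mice it was below B6, at -0.45, -0.77, -1.16, -0.29 and -0.53. The average is thus a statement about the 12 mice together and not about treated mice. H2-DMb1 missed the threshold without treated B6 replicate 5 (0.52, adjusted p = 0.0559) and without treated SLE123 replicate 2 (0.56, adjusted p = 0.0529).

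Ciita and H2-Oa did not pass. Ciita was at 0.82 among untreated and -0.50 among treated mice, and H2-Oa at 0.37 and -0.045. Ciita was at 0.16 ± 0.179 (adjusted p = 0.461, 95% interval -0.23 to 0.55) and H2-Oa at 0.16 ± 0.136 (adjusted p = 0.318, 95% interval -0.14 to 0.46). The spread was wide in untreated SLE123 (H2-Aa 50.1 ± 46.6 FPKM, SD, n = 3, against 14.0 ± 0.801 in treated SLE123), and the fit assumes the same spread in every group. With untreated replicate 3 and treated replicate 1 of SLE123 left out, 7 of the 10 genes were called higher and 1 lower. In that fit 7447 of the 13115 genes tested were called in either direction.

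**Figure D3:**
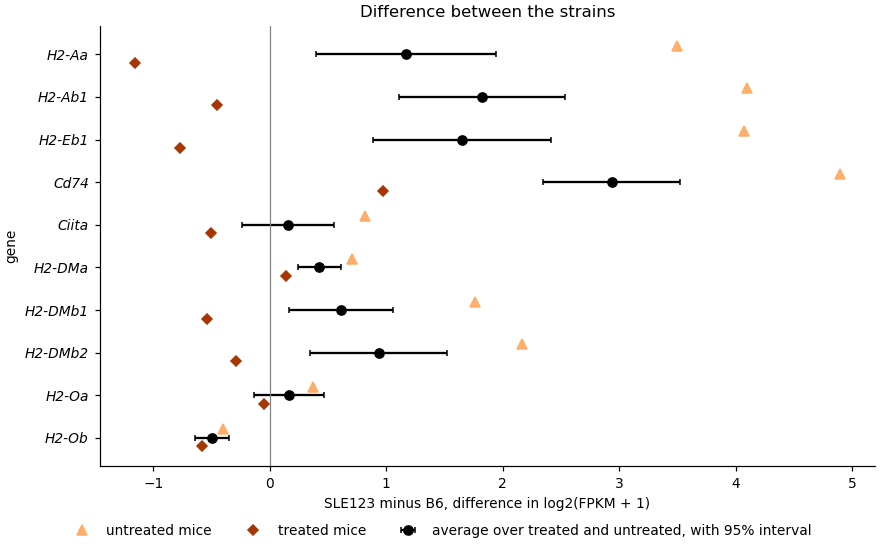
SLE123 minus B6 difference in log2(FPKM + 1) for each gene: circles with 95% intervals are the average over treated and untreated mice, triangles the untreated mice and diamonds the treated mice. Cd74 and H2-DMa lie above 0 and H2-Ob below 0 for both kinds of mice, while H2-Aa goes from 3.50 in untreated to -1.16 in treated mice.

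The genes were also set against each other within each library, where the library's scale drops out. Cd74 stood at 2.39 to 2.45 times the level of H2-Ab1 in treated B6, 3.09 to 4.96 times in untreated B6, 6.24 to 7.11 times in treated SLE123 and 4.34 to 6.53 times in untreated SLE123. The 3 treated B6 mice had the lowest ratios of the 12, and 1 untreated SLE123 mouse fell below the highest untreated B6 mouse. H2-Ab1 stood at 0.852 to 1.56 times the level of H2-Aa in B6 and at 1.496 to 2.31 times in SLE123. Both ratios were computed after the values were seen, and no test was run on them.

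Some cell type markers moved with the class II genes. Of the 9 B cell markers tested (of 12 on the list), 8 rose in treated B6 (limma, adjusted p under the threshold of 0.05, as for 8.74% of the genes tested), and the summed level of the 12 was 7.23 to 8.75 FPKM in untreated B6, 29.5 to 38.6 FPKM in treated B6, 43.7 to 66.8 FPKM in treated SLE123 and 71.9 to 268 FPKM in untreated SLE123. Of the dendritic cell markers, 5 of 9 were tested and Itgax and Zbtb46 rose in treated B6. Flt3 and Cd209a were called too, but they reached the 0.5 FPKM filter only through treated B6 (means of 1.37 and 3.58 FPKM there), so their calls are not counted. The sums of the 9 were 1.28 to 2.56 FPKM in untreated B6, 11.0 to 13.7 FPKM in treated B6, 2.26 to 2.63 FPKM in treated SLE123 and 3.18 to 6.76 FPKM in untreated SLE123. Monocyte and macrophage markers rose for 2 of 6 tested (Csf1r and Lyz2, of 9 on the list), with sums of 6.51 to 13.2, 34.5 to 108, 17.3 to 23.3 and 32.8 to 113 FPKM in the same order. No marker on these 3 lists was at 0 in all 3 mice of a group.

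In treated SLE123 none of these markers passed the test (limma, where 0.0381% of the genes tested passed), with 2 of 9 B cell, 1 of 5 dendritic cell and 3 of 6 monocyte and macrophage markers at an unadjusted p under 0.05, and limma's voom on recovered fragments called 0 as well. Plasma cell markers, where class II genes are known to be shut down, were higher in SLE123 for 4 of 4 in the strain average, beside 31.5% of the genes tested, and their sum was 31.8 to 157 FPKM in B6 and 940 to 4708 FPKM in SLE123. T cell markers were lower in treated B6 for 4 of 9 (6.12% of the genes tested were lower), a count that fell to 1 or 2 when any 1 B6 mouse was left out. The ratio of Cd74 to the B cell marker Cd79b varied far less than the level of Cd74. Cd74 was 6.84 to 13.4 times the level of Cd79b, a chain of the B cell receptor, a 1.96-fold range beside 85.3-fold for Cd74 itself. Within B6 the ratio was 6.84 to 7.07 in untreated mice and 9.74 to 13.4 in treated mice, without overlap, and this was not tested. Cd79b is 1 of the 12 B cell markers on the list and was taken with the values known. With Ms4a1 in its place, the ratio was lower in treated than in untreated B6. Ms4a1 was at 0.162 to 0.262 FPKM in untreated B6 (9 to 13 fragments per library) and at 1.60 to 2.76 FPKM in treated B6. Over the 12 mice, the Pearson correlation with the summed B cell markers was 0.990 for Cd74, 0.868 for H2-Aa, 0.711 for Ciita and -0.58 for H2-Ob. With the summed dendritic cell markers it was 0.369, 0.758, 0.804 and 0.166 in the same order, so Ciita had the higher value there. The summed level of the CD8 T cell markers Cd8a and Cd8b1 was 11.1 to 19.4 FPKM in B6 and 4.23 to 7.69 FPKM in SLE123. In bulk libraries fewer or more cells of a type and less or more RNA per cell cannot be told apart, and the part of B cells, dendritic cells or macrophages in the class II levels was not tested.

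**Figure D4:**
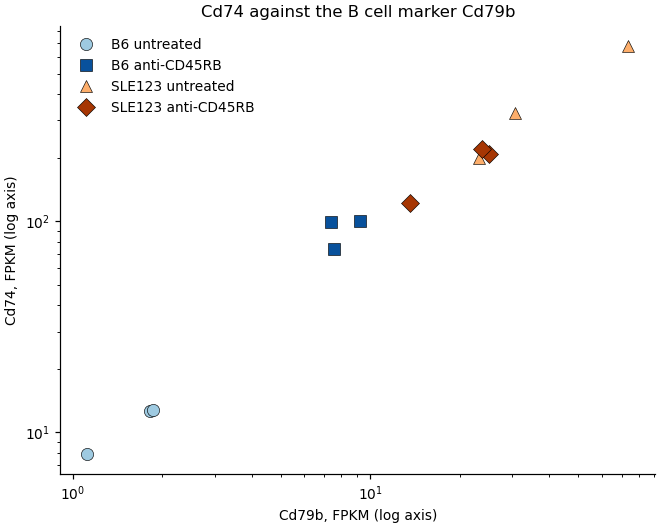
Each point is 1 mouse, with Cd74 against Cd79b in FPKM on log axes and 1 symbol for each of the 4 groups. The points run along a line, from untreated B6 replicate 4 at the lower left (Cd79b 1.12 FPKM, Cd74 7.92 FPKM) to untreated SLE123 replicate 3 at the upper right (Cd79b 73.7 FPKM, Cd74 675 FPKM).

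The other genes of the pathway were counted from lists. Class II processing covers the proteases and partners that prepare the invariant chain and the peptides. Of its 12 genes, 7 rose in treated B6, where 8.74% of the genes tested were called higher. In treated SLE123 0 passed, beside 0.0381% of the genes tested (limma, 1 at an unadjusted p under 0.05, and 0 called by voom). Ctsh, an aminopeptidase of lysosomes, rose by 1.71 ± 0.107 (adjusted p = 0.000593), from 0.222 to 0.362 FPKM in untreated to 2.86 to 3.84 FPKM in treated B6. March1, the ubiquitin ligase that removes class II from the surface, rose by 0.94 ± 0.0940 (adjusted p = 0.00233). Ifi30, a lysosomal thiol reductase, rose by 0.38 and Ctsz, a carboxypeptidase, by 0.35 (adjusted p = 0.00404 and 0.00887). The count of 7 was 4 without treated B6 replicate 3, treated replicate 5, untreated replicate 3 or untreated replicate 4, 4 with no filter and 2 in a fit over all 12 mice.

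The strains differed in 9 of the 12 processing genes on average, 8 higher and 1 lower in SLE123 (60.6% of all genes passed). Ctsb, a protease of endosomes, was higher by 1.18 ± 0.0642 (adjusted p = 6.64e-08), Ctsz by 1.35 ± 0.0886 (adjusted p = 2.44e-07), Ctss, which makes the last cut in the invariant chain in B cells and dendritic cells, by 0.56 ± 0.0575 (adjusted p = 8.19e-06) and Ctsl, which does so in the thymic epithelium, by 0.65 ± 0.0706 (adjusted p = 1.28e-05). Ifi30 was the one lower gene (-0.48, adjusted p = 0.0293), a call that was lost without any 1 of 6 mice. In the interaction, the difference with treatment in SLE123 less the one in B6, where 3.64% of the genes tested passed, Ctsh stood at -2.59 ± 0.441 (adjusted p = 0.0101) and March1 at -1.48 ± 0.306 (adjusted p = 0.0261), and the other 10 processing genes did not pass. March1 missed the threshold without any 1 of 7 mice. Without untreated SLE123 replicate 3 and treated SLE123 replicate 1, Ctsh stood at -2.06 and March1 at -1.21 (adjusted p = 0.00101 and 0.00436).

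The DNA-binding complex that Ciita joins had none of its 7 genes called with treatment in either strain. Of all genes tested, 14.9% passed in B6 and 0.0381% in SLE123, so 0 of 7 is near those shares. By limma 2 of the 7 were at an unadjusted p under 0.05 in B6 and 0 in SLE123, and voom called 0 in each. The summed level of the 7 was 111 to 115 FPKM in treated and 113 to 115 FPKM in untreated B6. Between the strains, Rfxank (-0.37, adjusted p = 0.000116), Nfyc (-0.18, adjusted p = 0.00386), Creb1 (-0.20, adjusted p = 0.0047) and Rfxap were lower in SLE123, and Rfx5 was higher (0.26, adjusted p = 0.0124).

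Among 8 regulators of Ciita, 3 rose in treated B6 (5 by voom), where 8.74% of the genes tested were called higher. In SLE123 0 passed, beside 0.0381% of the genes tested (limma, 2 at an unadjusted p under 0.05, 0 called by voom). Spi1, the PU.1 factor of myeloid and B cells, rose by 1.61 ± 0.131 (adjusted p = 0.00111), from 0.642 to 0.788 FPKM in untreated to 3.63 to 5.36 FPKM in treated B6. Irf8, a factor of B cells and dendritic cells, rose by 0.88 ± 0.130 (adjusted p = 0.00823), from 4.99 to 5.43 FPKM to 8.16 to 11.6 FPKM. In the interaction Spi1 stood at -2.42 ± 0.304 (adjusted p = 0.00255) and Irf8 at -1.31 ± 0.226 (adjusted p = 0.0105), and without the same 2 libraries at -2.01 and -1.16 (adjusted p = 0.00215 and 0.0276). The strain average was higher in SLE123 for 6 of 8, beside 31.5% of the genes tested, led by Irf4 (2.53 ± 0.160, adjusted p = 1.92e-07) and Prdm1 (1.66 ± 0.137, adjusted p = 1.46e-06). Prdm1 encodes Blimp-1, a repressor of Ciita in plasma cells, and Irf4 works beside it there.

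Genes that lie among the class II genes on chromosome 17 but do other work were counted as well. Of 8, 6 were tested and 0 passed in either treatment comparison (limma). At an unadjusted p under 0.05 there were 3 in B6 and 0 in SLE123. Of all genes tested, 14.9% passed in B6 and 0.0381% in SLE123, so 0 of 6 is near those shares. Voom called 2 lower in B6 and 0 in SLE123. On the strain average Psmb9 (0.49) and Psmb8 (0.28), subunits of the immunoproteasome, and Tap1 (0.29), a chain of the peptide transporter, were higher in SLE123, and Ager (-0.69), a pattern recognition receptor, and Brd2 (-0.13), a chromatin reader, were lower. Costimulatory and coinhibitory ligands, which antigen-presenting cells show beside class II, were taken as 1 list. With treatment 0 of 5 tested were called in either strain (limma, 1 at an unadjusted p under 0.05 in each), near the same 14.9% and 0.0381%. Voom called 1 higher in B6 and 0 in SLE123. On the strain average 3 of the 5 were higher in SLE123, beside 31.5% of the genes tested. These were the coinhibitory ligands Pdcd1lg2 (1.51 ± 0.0961, adjusted p = 2.03e-07) and Cd274 (0.81 ± 0.0619, adjusted p = 7.61e-07) and the costimulatory ligand Cd80 (1.36 ± 0.131, adjusted p = 5.19e-06).

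**Figure D5:**
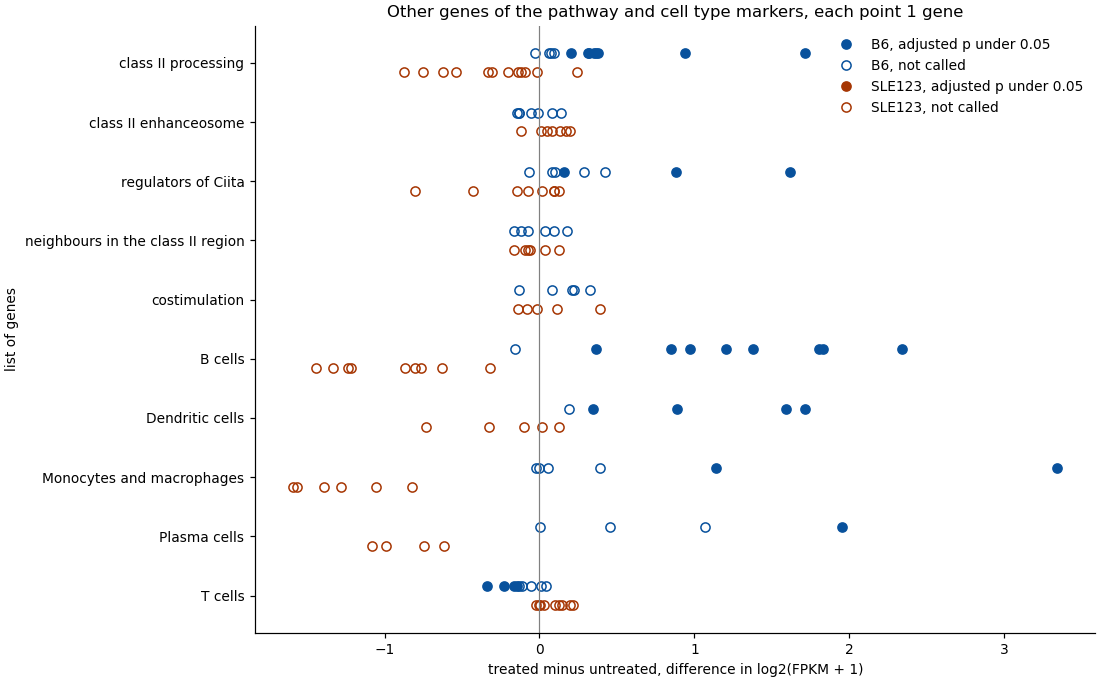
Treated minus untreated difference in log2(FPKM + 1) for each tested gene of each list, in B6 (blue, upper row of each pair) and SLE123 (brown, lower row), filled where the adjusted p was under 0.05. In B6 the filled points of class II processing reach 1.71 (Ctsh) and those of the regulators of Ciita 1.61 (Spi1), and no SLE123 point is filled.

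The genes most like the class II pattern were found by Pearson correlation with the mean of the 10 genes over the 12 mice, as a description over mice of 4 groups. They were Ctsh (r = 0.994), Fcmr (0.989), an Fc receptor for IgM, and Lyn (0.988), a kinase of B cell receptor signaling. Next came Fcgr2b (0.983), the inhibitory IgG receptor, and Ly86 (0.982), the partner of RP105. Of these 5, 2 stayed among the first 5 by Spearman correlation, 2 with H2-Aa alone as the pattern and 1 with group means taken away. With the group means taken away, so that only differences between mice of 1 group count, the genes most like it included Ssr3 (0.978), Rnase6 (0.967), Arhgap6 (0.967) and Ctsh (0.966). Each gene's own correlation with the pattern of the other 9 was 0.821 to 0.987 for 8 of them, 0.406 for H2-Oa and -0.40 for H2-Ob.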

How the data were processed

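CD4+ T cells of 12 mice were sequenced after poly-A selection. The authors deposited FPKM per gene, made per the submitters' processing notes with CASAVA 1.8, STAR and mm10; the counting program and annotation are not given in the sources used here. The low values gave whole fragments for all 23230 genes above 0, with totals of 13563594 to 23642949 per library, where 3 fragments on a 2000-base transcript are 0.0634 to 0.111 FPKM (counting error only). Of the 35275 gene IDs, 97.8% were matched to GENCODE M21.

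The 13115 genes whose FPKM averaged 0.5 or more across the 12 libraries were fitted as log2(FPKM + 1) with limma 3.58.1 (R 4.3.3; lmFit, eBayes with a trend), within strain for treatment (6 mice) and over 12 mice for the strain average and interaction, with Benjamini-Hochberg adjustment and a threshold of 0.05. The study's own test, DESeq2 on counts, was not run. The deposited values are FPKM, and the fragments recovered from them were fitted only with limma's voom, as an alternative. The scripts were tested on simulated data.

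The 10 genes, the gene lists, the marker lists and the motif letters were chosen with earlier results of these data known. Named from each list were up to 4 genes called in any comparison, by adjusted p, genes whose role is given, and the 5 genes most correlated with the mean pattern. Replicate numbers were not used to pair the mice in the main fits. Some genes of the lists are not reported here by name.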

Additional observations from a re-analysis of the deposited data

Results flagged for a closer look

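The treatment difference in SLE123 minus that in B6, in log2(FPKM + 1), was -4.66 for H2-Aa, -4.84 for H2-Eb1, -2.30 for H2-DMb1 and -2.46 for H2-DMb2. Every treated B6 mouse was above, and every treated SLE123 mouse below, the untreated mice of its strain. The genes were chosen for this, so the difference was not tested.

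Outside the chosen genes, the same quantity passed the interaction test (limma, Benjamini-Hochberg adjustment) for Ctsh (-2.59, adjusted p = 0.0101), Spi1 (-2.42, adjusted p = 0.00255), March1 (-1.48, adjusted p = 0.0261) and Irf8 (-1.31, adjusted p = 0.0105). All 4 rose in treated B6 and did not pass in treated SLE123, where the differences were -0.87, -0.80, -0.54 and -0.43. The lists that hold them were chosen with earlier results of these data known, and Ctsh was the gene most like the class II pattern. Their calls are thus not independent of the choice. In the same test, which 3.64% of the genes tested passed, 4 of 9 B cell markers passed (1 by voom, 1 to 8 with 1 mouse left out). Of 6 monocyte and macrophage markers, 2 passed, Csf1r (-2.42) and Lyz2 (-4.40). C1qa, C1qb and C1qc did not pass, and their differences in treated B6 were -0.0001, -0.024 and 0.054. The dendritic cell marker Itgax passed at -2.32. The part of these markers was not tested.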

How the results depend on the processing

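Cd74 and H2-Ob kept their direction in the strain average under all 26 alternatives, and their call under those that used treated and untreated mice together. Leaving out 1 mouse at a time, 7 to 8 of the 10 genes were called in it and their median was 0.525 to 0.924. The median with treatment lay between 1.19 and 1.39 for B6 and between -1.28 and -0.536 for SLE123. The counts of all genes called were then 7346 to 8420 for the strain average (7945 with all mice), 675 to 1393 in B6 (1948), 1 to 7 in SLE123 (5) and 205 to 2917 for the interaction (478), the highest without untreated SLE123 replicate 1 and the lowest without untreated B6 replicate 4. The smallest B6 count also came without untreated replicate 4.

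Other settings moved the median of the 10 genes on the log2 scale. With a pseudocount of 0.1 it was 1.10 in the strain average and 2.23 in B6. With limma's voom on recovered fragments it was 1.20 and 2.64, and after rescaling to TPM it was 1.62 in B6. Without the 2 libraries that stand apart, a choice made after seeing the data, it was -0.371 in SLE123. Genes called in B6 were 1134 with no filter and 815 with all 12 mice in one fit. In SLE123 they were 21 with TPM, 3 with voom and 53 with all 12 mice in one fit.

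The strain average reversed for several genes. Among untreated mice alone the median was 1.96, and among treated mice alone it was -0.477, with H2-Aa at -1.16, H2-Ab1 at -0.45, H2-Eb1 at -0.77, Ciita at -0.504, H2-DMb1 at -0.53, H2-DMb2 at -0.29, H2-Oa at -0.045, Spi1 at -0.14, Ctsh at -0.39 and March1 at -0.63. Those values are parts of the average itself. H2-Oa was -0.046 with TPM and -0.083 with quantile normalization, which also gave -0.0903 for Ciita, -0.153 for March1 and no call for H2-DMb1 (adjusted p = 0.116). Without 1 mouse Ciita was -0.0303 to 0.267 and March1 -0.0492 to 0.2003, both lowest without untreated SLE123 replicate 3, and without both libraries that stand apart they were -0.047 and -0.075. Ifi30 was 0.083 among untreated mice alone. In B6, H2-Oa was -0.264 to 0.00033 without 1 mouse. The cause was not tested.

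The deviations of same-numbered mice had correlations of -0.14 and -0.094 in B6 and 0.137, -0.161 and 0.266 in SLE123. The main fits did not pair the mice, and so few correlations cannot decide whether they were paired. With the replicate block 0 genes were called in B6, where 1 residual degree of freedom is left, and 91 in the interaction. In the strain average 6 of the 10 genes were called with the block, H2-Aa and H2-DMb1 no longer (1.19 and adjusted p = 0.0597 for H2-Aa). With the block 5790 of the 13115 genes tested were called in the strain average.

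For depth, Ciita and the H2-DM β subunits in untreated B6 rest on 4 to 27 fragments per library. In untreated B6 replicate 4, H2-Eb1 rests on 15 fragments, H2-Aa on 21 and H2-Ab1 on 35.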
